A study of Rattus norvegicus with 6 samples.

Results

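The nuclear genes for subunits of the mitochondrial respiratory chain and of ATP synthase, together with assembly factors named after the same complexes, were followed in bulk RNA from rat intervertebral discs. Members were the protein-coding genes outside the mitochondrial genome whose symbol begins with Nduf, Sdh, Uqcr, Cox4, Cox5, Cox6, Cox7, Cox8 or Atp5. The deposited table held 30562 genes, of which 106 met this rule. Of these, 94 carry the name of a subunit or assembly factor and 12 are named as pseudogenes although they are listed as protein coding.

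Tail discs of 12-week-old male Sprague-Dawley rats had been punctured with an 18 gauge needle. Control discs received PBS, and the others received AF-PTK@LEV@SPP1, given as 10 μL with 1 mg/kg of siRNA from 24 h after surgery over 8 weeks. AF-PTK@LEV@SPP1 is a hybrid of liposomes and bacterial outer membrane vesicles that bears a peptide for the annulus fibrosus on a linker cut by reactive oxygen species, and its cargo is an siRNA against Spp1, by the paper's description the mouse gene. The paper counts 3 independent animals in each group. These details come from the paper, and the sample labels differ from it. They give the genotype of both groups as WT and describe untreated controls, a treatment of 14 days, mice, and macrophages sorted by F4/80 and CD11b, whereas the table carries rat identifiers and the paper describes whole disc tissue. Col2a1, the main collagen of cartilage, stood at 14113 normalized CPM (a gene's counts scaled to the same library size throughout) or more in every library, and the macrophage markers are given beside the members' levels.

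The 3 Control libraries held 17942989, 16565291 and 17489851 counts and the 3 with the label AF-PTK@LEV@SPP1 held 17074981, 15560728 and 17855184. At this depth 3 counts, taken as the smallest measurable level, correspond to 0.167 to 0.193 CPM, a limit that covers counting error alone. Control replicates 2 and 3 differed by little beyond sampling noise, with a mean chi-square of 1.33 over 14393 genes and 0 of 88 members differing, and they were counted as 1 sample. The other pairs within a group had mean chi-squares of 51.3 to 107. Means and standard deviations (SD) therefore rest on 2 distinct Control samples and 3 distinct samples labelled AF-PTK@LEV@SPP1, and the smallest p that an exact permutation test can give is 0.1.

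Spp1, the gene the siRNA is directed at, had 8263, 4469 and 4473 normalized CPM in Control replicates 1, 2 and 3 and 7944, 6775 and 8324 in libraries with the label AF-PTK@LEV@SPP1. The groups overlapped, with Control 1 near the highest of the labelled libraries and the other Control libraries lowest. The log2 fold change, here and throughout the labelled libraries minus Control, was 0.31 (SE 0.37, edgeR adjusted p = 0.628, exact permutation p = 0.6), and it was 0.81 without Control replicate 1 and -0.07 without Control replicates 2 and 3. Since Spp1 was not lower under the treatment label, all directions are given relative to the labels. The paper reports Mmp9 as lower and Pparg as higher after treatment. Here their log2 fold changes were -1.66 (edgeR adjusted p = 0.026) and 1.39 (edgeR adjusted p = 0.147), the same directions by the labels.

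The respiratory chain passes electrons from NADH through complex I and from succinate through complex II to ubiquinone, and on through complex III, cytochrome c and complex IV to oxygen. Complexes I, III and IV move protons across the inner mitochondrial membrane, and ATP synthase uses their return to make ATP. A few subunits of complexes I, III and IV and of ATP synthase are read from the mitochondrial genome, while all others are nuclear genes. The inner disc has few vessels and little oxygen, and its cells are known to rely largely on glycolysis.

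In these whole discs most members of the chain lay close to their Control level. Of 106 members, 92 had enough counts to be tested and 8 had 0 counts in every library. By edgeR 0 members were higher and 1, Sdhaf1, was lower at an adjusted p under 0.05, where all 15537 genes tested gave 1.13% higher and 2.57% lower. At an unadjusted p under 0.05 there were 12 members (13.0%), against 25.4% of all genes tested. With Control replicate 1, any of AF-PTK@LEV@SPP1 replicates 1, 2 and 3, or the pair of Control replicates 2 and 3 left out, edgeR called 0 members, with 5, 8, 9, 6 and 17 at an unadjusted p under 0.05. These were 5.43%, 8.70%, 9.89%, 6.52% and 18.5% of those tested, against 22.3%, 26.0%, 20.4%, 17.7% and 16.0% of all genes, so the members' share was the smaller in each but the last. Without AF-PTK@LEV@SPP1 replicate 2 or 3, edgeR called no gene of the whole table, so the lack of called members there is not particular to the members. DESeq2 called 1 member higher (Ndufa4l2) and 4 lower (Sdhaf1, Uqcr10, Atp5mk and Ndufaf4), that is 1.09% and 4.35% of those tested, where it called 7.29% of all genes higher and 9.27% lower. The limma-voom calls were 0 higher and Sdhaf1 lower, against 0.895% and 2.03% of all genes. At an unadjusted p under 0.05 there were 15 members by DESeq2 (16.3%, all genes 28.3%) and 12 by limma-voom (13.0%, all genes 25.6%).

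The sizes of the differences were small for most members. The median log2 fold change of the tested members was -0.11 (0.02 without Control replicate 1), with 67 below 0 and 25 above, and the range ran from -1.15 to 1.35. Over all genes tested the median was 0.05. A fold change of under 0.5 in absolute log2 was seen for 82 members (89.1%), against 63.6% of all genes, and for 78 members (84.8%) the 95% confidence interval lay within 1 log2 unit of 0, against 52.2% of all genes. The distinct samples labelled AF-PTK@LEV@SPP1 all lay above the Control samples for 7 members (7.61%, background 21.1%) and all below for 21 (22.8%, background 24.8%). For the other 64 the groups overlapped. With the near-identical pair kept as separate libraries, edgeR called 3 members higher (Sdhaf2, Ndufa4l2 and Ndufb10) and 4 lower (Sdhaf1, Uqcr10, Atp5mk and Ndufaf4), where 8.2% and 9.93% of all genes were called. These are whole discs, so fewer cells of a type and less RNA per cell cannot be told apart.

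**Figure D1:**
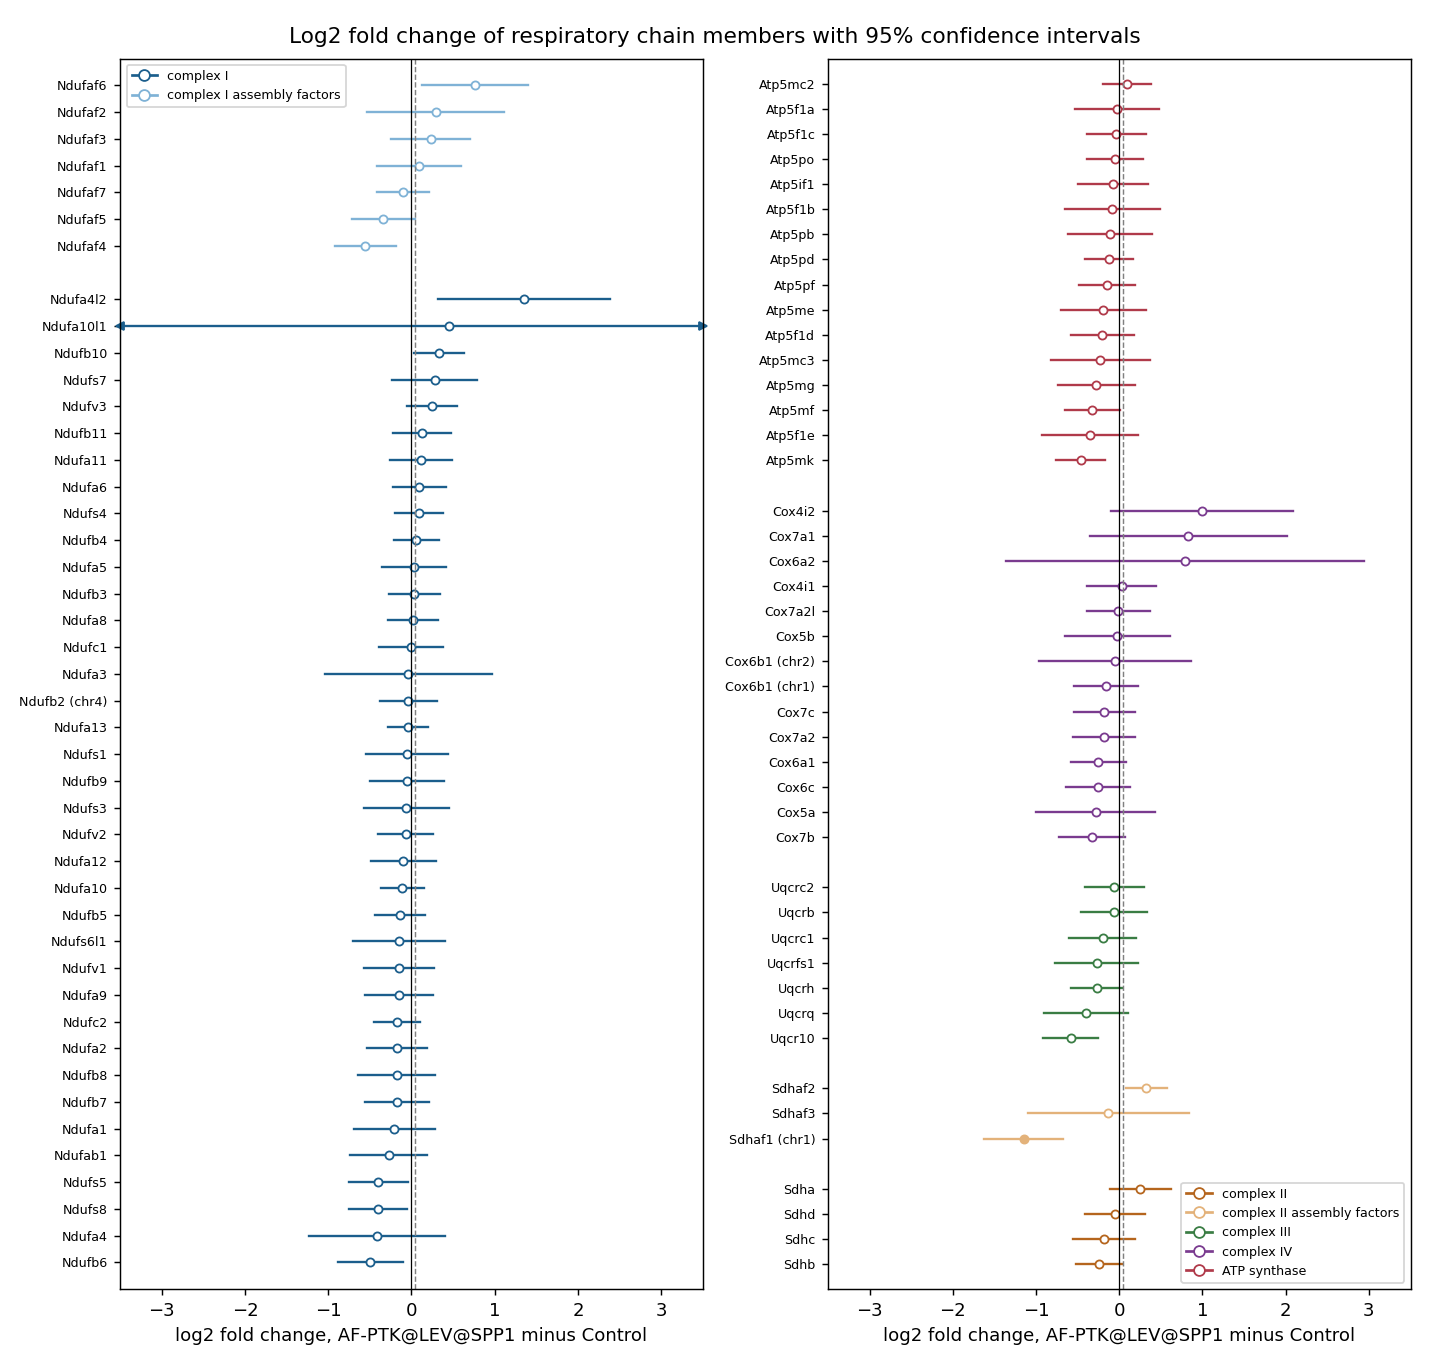
Log2 fold change (AF-PTK@LEV@SPP1 minus Control, x axis) of tested subunits and assembly factors, each with its 95% confidence interval from edgeR, ordered within each complex. The filled point (Sdhaf1) passed the test and open points did not, the dashed line is the median of all genes tested (0.05), and the interval of Ndufa10l1 runs past both edges. Most points lie between -0.5 and 0.5.

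The sign of the median rested on 1 Control library. Summed over all members other than Ndufa4l2 and Cox4i2, the level was 5733, 4632 and 4657 normalized CPM in Control replicates 1, 2 and 3 and 4351, 5128 and 4629 in libraries with the label AF-PTK@LEV@SPP1. Control 1 was highest and AF-PTK@LEV@SPP1 replicate 1 lowest, and the other libraries lay between them, so the groups overlapped (means 5188 ± 769 SD, n = 2, and 4703 ± 393 SD, n = 3). With these isoforms included the sum was 5942, 4898 and 4923 in Control and 5155, 5453 and 5190 in the labelled libraries, where AF-PTK@LEV@SPP1 replicate 1 lay above Control replicates 2 and 3 (means 5426 ± 729 SD, n = 2, and 5266 ± 163 SD, n = 3). Control 1 was the highest of the distinct samples for 61 of the 92 tested members (66.3%), against 20.1% of all genes tested. Without Control replicate 1 the median was 0.02 with 38 members below 0 and 54 above, and without Control replicates 2 and 3 it was -0.24.

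Markers of other cells were also uneven between these libraries. Control 1 held the highest summed osteoclast markers, 6633 normalized CPM against 4295 and 4313 in Control replicates 2 and 3 and 1108, 1084 and 760 in the labelled libraries, over 8 of 8 listed genes with none at 0 and Ctsk, a collagen-cutting protease, as the most abundant. The macrophage and monocyte list (12 of 12 genes measured, none at 0, the lysozyme gene Lyz2 most abundant) summed to 3236, 2188 and 2163 in Control and 709, 1964 and 1981 in the labelled libraries. The osteoblast list (5 of 5 genes measured, none at 0, the bone sialoprotein gene Ibsp most abundant) summed to 4372, 1698 and 1688 against 1995, 2910 and 1671. Control 1 was thus the highest library for these lists as it was for the members, and AF-PTK@LEV@SPP1 replicate 1 was lowest for the macrophage list. The skeletal muscle list stood apart in AF-PTK@LEV@SPP1 replicate 2, with 13552 against 1293 to 3589 in the other libraries. That library had the highest member sum of the labelled libraries. The part of these cells in the members' levels was not tested.

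**Figure D2:**
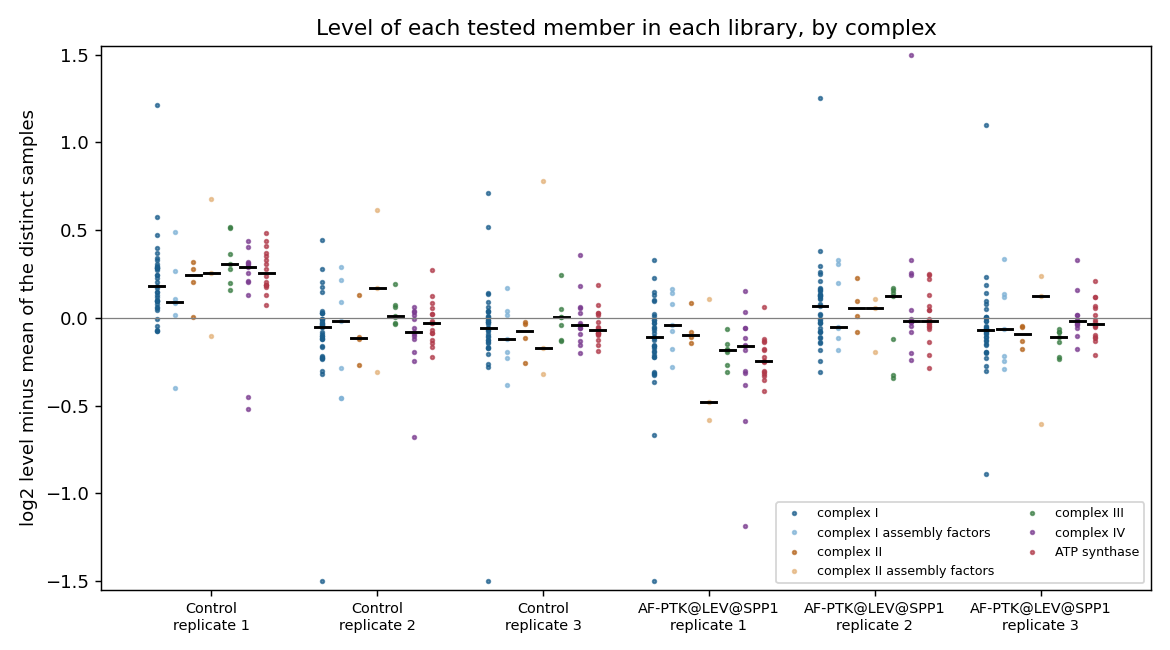
Level of each tested subunit or assembly factor in each library (y axis: log2 of normalized CPM plus 0.5, minus the mean over the distinct samples of that gene), by complex, with bars at the median. Ndufa4l2 and Cox4i2 were left out, and points beyond 1.5 are drawn at the edge. The median over the 87 genes shown was 0.24, -0.04 and -0.06 in Control replicates 1, 2 and 3 and -0.16, 0.02 and -0.06 in libraries with the label AF-PTK@LEV@SPP1.

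Complex I, the NADH dehydrogenase, contributed 40 members, of which 38 were tested. By edgeR 0 were called in either direction, with 5 at an unadjusted p under 0.05, while DESeq2 called 1 higher (Ndufa4l2) and limma-voom 0. Their median log2 fold change was -0.06 (0.02 without Control replicate 1, -0.09 without Control replicate 2, -0.13 without AF-PTK@LEV@SPP1 replicate 2, -0.18 without Control replicates 2 and 3), with 25 below 0. Summed without Ndufa4l2, complex I stood at 1405, 1169 and 1171 normalized CPM in Control and 1122, 1296 and 1179 in the labelled libraries, an overlapping range with Control 1 on top. The 7 core subunits encoded in the nucleus, which carry the flavin, the iron-sulfur clusters and the quinone site, had a median of -0.07, and the 31 other tested members one of -0.05, with 0.002 and 0.04 without Control replicate 1, -0.23 and -0.09 without AF-PTK@LEV@SPP1 replicate 2 and -0.21 and -0.15 without Control replicates 2 and 3. For the 7 it was also -0.11 without Control replicate 2 and -0.03 without AF-PTK@LEV@SPP1 replicate 3.

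The highest fold change within complex I was that of Ndufa4l2, described with the isoforms below. Ndufb10, an accessory subunit of the membrane arm chosen after its values were seen, had 35.5, 30.2 and 31.0 normalized CPM in Control and 41.5, 37.9 and 42.6 in the labelled libraries. Every labelled library was above every Control library, by a log2 fold change of 0.33 (SE 0.12, edgeR adjusted p = 0.167) that was not called.

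Among other subunits, also chosen after their values were seen, Ndufb6 and Ndufs8 had lower values in every labelled library. Ndufb6, in the membrane arm, had 20.6, 17.9 and 14.6 normalized CPM in Control and 12.8, 13.3 and 12.1 in the labelled libraries. The core subunit Ndufs8, which binds iron-sulfur clusters, had 22.7, 20.7 and 19.7 in Control and 14.3, 16.4 and 16.7 in the labelled libraries. For neither gene did the groups overlap. Log2 fold changes were -0.50 (edgeR adjusted p = 0.137, and -0.33 without Control replicate 1) for Ndufb6 and -0.40 (edgeR adjusted p = 0.155) for Ndufs8. Ndufa10l1 (chosen after its values were seen), a gene named as like the accessory subunit Ndufa10, had 67, 0 and 0 counts in Control and 0, 61 and 57 in the labelled libraries. It was present in 1 library of the Control group and 2 of the labelled group and had 0 counts in the others (up to 0.181 CPM at their depth), so it split both groups. The neutrophil list, 9 genes of which Ltf was at or under 3 counts in every library and S100a9 was the most abundant, summed to 1202, 185 and 173 normalized CPM in Control and 303, 3001 and 4081 in the labelled libraries, highest in the same libraries, and its part in the Ndufa10l1 values was not tested.

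Ndufa4, first counted with complex I and now placed with complex IV, was kept with complex I in the counts, medians and sum above. It had 86.4, 55.9 and 59.3 normalized CPM in Control and 36.3, 71.1 and 50.4 in the labelled libraries. The groups overlapped, with Control 1 highest and AF-PTK@LEV@SPP1 replicate 1 lowest, and the log2 fold change was -0.41 (SE 0.33, edgeR adjusted p = 0.464). It was -0.11 without Control replicate 1, -0.24 and -0.69 without AF-PTK@LEV@SPP1 replicates 1 and 2 and -0.68 without Control replicates 2 and 3. The locus lies opposite Phf14.

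The assembly factors of complex I, which build the complex without staying in it, numbered 7, all tested. By edgeR 0 were called, with 2 at an unadjusted p under 0.05, while DESeq2 called Ndufaf4 lower and limma-voom called 0. Ndufaf4 had 21.7, 17.9 and 17.3 normalized CPM in Control and 12.5, 13.4 and 13.1 in the labelled libraries. All labelled libraries were below all Control libraries, and the log2 fold change was -0.56 (SE 0.14, edgeR adjusted p = 0.0998). Ndufaf6 had 2.19, 2.09 and 2.54 in Control and 3.25, 3.97 and 3.98 in the labelled libraries. Here every labelled library was above every Control library, with a log2 fold change of 0.76 (SE 0.25, edgeR adjusted p = 0.151). The median of the 7 was 0.10, between -0.56 and 0.76, and it was 0.005, 0.004 and 0.21 without AF-PTK@LEV@SPP1 replicates 1, 2 and 3 and 0.03 without Control replicates 2 and 3.

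Complex II, succinate dehydrogenase, is the chain's link to the tricarboxylic acid cycle and is encoded wholly in the nucleus. All 4 subunits were tested, and edgeR, DESeq2 and limma-voom called 0, with 0 at an unadjusted p under 0.05 in each. Sdha, the flavoprotein that oxidizes succinate, had 111, 92.1 and 92.8 normalized CPM in Control and 118, 130 and 107 in the labelled libraries. Control 1 lay inside the labelled range, and the log2 fold change was 0.25 (edgeR adjusted p = 0.327), with 0.38 without Control replicate 1 and 0.13 without Control replicates 2 and 3. Sdhb, the iron-sulfur subunit, had 59.2, 53.3 and 47.6 in Control and 45.1, 46.0 and 44.4 in the labelled libraries. All labelled libraries were below all Control libraries, by a log2 fold change of -0.24 (edgeR adjusted p = 0.24) that was -0.13 without Control replicate 1, and the Sdhb locus overlaps Atp13a2 on the same strand. The median of the 4 was -0.12, with 0.06 without Control replicate 1 and -0.27 without Control replicates 2 and 3.

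Sdhaf1 (ENSRNOG00000047045, chr1:85576041-85577366 on the minus strand in the table's coordinates), a factor needed to insert iron-sulfur clusters into Sdhb, was the member that passed the test. It had 18.2, 17.4 and 19.5 normalized CPM in Control replicates 1, 2 and 3 and 7.31, 9.71 and 7.18 in libraries with the label AF-PTK@LEV@SPP1. The Control libraries lay close together and above every labelled library. The means were 18.3 ± 0.203 (SD, n = 2) and 8.07 ± 1.43 (SD, n = 3). Sdhaf1 fell by 1.15 on the log2 scale (SE 0.19, 95% confidence interval -1.62 to -0.68, edgeR adjusted p = 0.0444, exact permutation p = 0.1). The adjusted p stayed under the threshold without Control replicate 2 (0.0433) or 3 (0.0493) and rose above it in the other omissions. It was 0.0814, 0.0816 and 0.176 without AF-PTK@LEV@SPP1 replicates 1, 2 and 3. Without AF-PTK@LEV@SPP1 replicate 2 or 3 no gene of the whole table passed, so that loss is not particular to Sdhaf1. Without Control replicate 1, or without Control replicates 2 and 3, a lone distinct Control sample was left. The log2 fold change was then -1.17 and -1.13. By edgeR the adjusted p was 0.0659 with scaling by library size only. It was 0.0531 with the 6 libraries kept apart and a term for the replicate block, against 0.00833 with the 6 kept apart and no such term. The edgeR, DESeq2 or limma-voom call was made in 9 of 16 alternatives, and the log2 fold change lay between -1.30 and -1.07 in all 16. A second gene of the same name overlaps it on the other strand with 0 counts, so reads that both could claim make these counts uncertain.

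Of the other complex II assembly factors, Sdhaf2, which attaches the flavin to Sdha, had 50.3, 43.5 and 48.0 normalized CPM in Control and 58.4, 58.4 and 58.9 in the labelled libraries. Every labelled library was above every Control library. Its log2 fold change was 0.32 (SE 0.10, edgeR adjusted p = 0.128), and Cpsf7 lies on the opposite strand. Sdhaf3, the remaining factor, had 2.46, 2.28 and 1.48 in Control and 1.28, 2.07 and 2.41 in the labelled libraries, with overlapping groups.

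Complex III, which passes electrons from ubiquinol to cytochrome c, had 7 nuclear members, all tested and all with a log2 fold change below 0 (median -0.27, from -0.58 to -0.06, and a median of -0.09 without Control replicate 1). By edgeR 0 were called, with 1 at an unadjusted p under 0.05, while DESeq2 called Uqcr10 lower and limma-voom called 0. Their summed level was 534, 440 and 433 normalized CPM in Control and 376, 440 and 393 in the labelled libraries. Control 1 was the highest library for the sum, AF-PTK@LEV@SPP1 replicate 2 was level with Control replicate 2, and the ratio of the means was 0.831 (485 ± 68.8 SD, n = 2, and 403 ± 33.2 SD, n = 3). Control 1 was also the highest distinct sample for each of the 7, and the osteoclast, osteoblast and macrophage sums given above were highest there too.

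Uqcr10, a small accessory subunit of complex III, had 56.8, 45.4 and 47.0 normalized CPM in Control and 32.9, 31.6 and 36.0 in the labelled libraries. All labelled libraries were below all Control libraries, of which Control 1 was highest (51.5 ± 7.51 SD, n = 2, and 33.5 ± 2.28 SD, n = 3). Its log2 fold change was -0.58 (SE 0.13, 95% confidence interval -0.91 to -0.25, edgeR adjusted p = 0.0779), and Zmat5 lies on the opposite strand. Uqcrc2, a core protein of the complex, had 96.5, 84.2 and 84.1 in Control and 77.9, 95.3 and 80.0 in the labelled libraries. The groups overlapped, the log2 fold change was -0.06 (edgeR adjusted p = 0.814), and it was 0.03 without Control replicate 1, -0.04, -0.15 and -0.02 without AF-PTK@LEV@SPP1 replicates 1, 2 and 3 and -0.15 without Control replicates 2 and 3.

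Complex IV, cytochrome c oxidase, had 16 members and 14 tested. By edgeR and limma-voom 0 were called with 0 at an unadjusted p under 0.05, and DESeq2 called 0 with 1 under 0.05. The median log2 fold change was -0.11 (0.06 without Control replicate 1, -0.19 without AF-PTK@LEV@SPP1 replicate 2, -0.31 without Control replicates 2 and 3), with 10 below 0. Summed without Cox4i2, the level was 1071, 837 and 854 normalized CPM in Control and 808, 915 and 877 in the labelled libraries, overlapping, with Control 1 highest. The lowest fold change belonged to Cox7b, a small membrane subunit, with 63.5, 48.5 and 48.9 normalized CPM in Control and 38.8, 47.1 and 44.6 in the labelled libraries. Its labelled libraries were below its Control libraries, by a log2 fold change of -0.33 (SE 0.16, edgeR adjusted p = 0.261) that was -0.14 without Control replicate 1 and -0.51 without Control replicates 2 and 3. Cox7a2l, a factor that joins complexes III and IV into supercomplexes, had 130, 112 and 114 in Control and 132, 103 and 118 in the labelled libraries. The groups overlapped, and the log2 fold change of -0.01 (edgeR adjusted p = 0.968) lay near 0 and turned positive in 6 alternatives, upper-quartile scaling (0.02) among them and 0.08 without Control replicate 1 or AF-PTK@LEV@SPP1 replicate 2, and it was -0.13 without AF-PTK@LEV@SPP1 replicate 1 and -0.10 without Control replicates 2 and 3.

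ATP synthase had 16 members, all tested, with 15 below 0 and a median log2 fold change of -0.14 (from -0.46 to 0.09, with a median of 0.01 without Control replicate 1 and -0.26 without Control replicates 2 and 3). By edgeR 0 were called, with 1 at an unadjusted p under 0.05, while DESeq2 called Atp5mk lower and limma-voom called 0. The summed level was 2228, 1775 and 1782 normalized CPM in Control and 1615, 2014 and 1763 in the labelled libraries. Control 1 was the highest library and AF-PTK@LEV@SPP1 replicate 1 the lowest, and the groups overlapped. For 14 of the 16 members Control 1 was the highest distinct sample. The catalytic subunit Atp5f1b, chosen after its values were seen, had 572, 420 and 440 in Control and 417, 559 and 408 in the labelled libraries, overlapping like the sum, and its locus overlaps Baz2a on the same strand.

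At the lower end was Atp5mk, a small membrane subunit, with 72.8, 68.0 and 64.0 normalized CPM in Control and 44.6, 51.2 and 51.2 in the labelled libraries. The labelled libraries lay together below all Control libraries. This gave a log2 fold change of -0.46 (SE 0.12, edgeR adjusted p = 0.0922) at a locus that lies opposite Taf5. At the upper end was Atp5mc2, a gene for the c subunit of the rotor ring, with 107, 92.3 and 91.6 in Control and 106, 102 and 103 in the labelled libraries. The groups overlapped, and its log2 fold change of 0.09 (edgeR adjusted p = 0.64) became 0.20 without Control replicate 1, 0.04 without AF-PTK@LEV@SPP1 replicate 1 and -0.01 without Control replicates 2 and 3. Atp5if1, the protein that inhibits ATP hydrolysis by the enzyme, had 68.2, 61.3 and 56.8 in Control and 48.7, 62.2 and 65.6 in the labelled libraries. The groups overlapped, with a log2 fold change of -0.08 (edgeR adjusted p = 0.805) that was 0.02 and -0.05 without Control replicates 1 and 2, 0.01, -0.11 and -0.16 without AF-PTK@LEV@SPP1 replicates 1, 2 and 3 and -0.17 without Control replicates 2 and 3.

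Ndufa4l2 and Cox4i2, isoforms known for their response to low oxygen, had the largest log2 fold changes above 0 among the tested members. Ndufa4l2, a relative of Ndufa4, had 168, 203 and 206 normalized CPM in Control and 668, 272 and 451 in the labelled libraries. Every labelled library was above every Control library, with AF-PTK@LEV@SPP1 replicate 1 farthest. The means were 186 ± 25.9 (SD, n = 2) and 464 ± 198 (SD, n = 3). The log2 fold change of 1.35 (SE 0.41, 95% confidence interval 0.32 to 2.38) did not pass edgeR's test (adjusted p = 0.127, exact permutation p = 0.2), passed DESeq2's (adjusted p = 0.013, with 0.013 to 0.325 over 16 alternatives), and was 0.96 without AF-PTK@LEV@SPP1 replicate 1. Shmt2 lies on the opposite strand of the locus.

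Cox4i2, which can replace Cox4i1 in complex IV, had 41.3, 62.0 and 60.5 normalized CPM in Control and 136, 53.7 and 110 in the labelled libraries. AF-PTK@LEV@SPP1 replicates 1 and 3 were above all Control libraries and replicate 2 lay within them, so the groups overlapped. For Cox4i2 the log2 fold change was 0.99 (SE 0.43, 95% confidence interval -0.10 to 2.09, edgeR adjusted p = 0.227, exact permutation p = 0.3). Cox4i1, the common form (chosen after its values were seen), had 231, 168 and 173 in Control and 192, 206 and 202 in the labelled libraries, overlapping, with a log2 fold change of 0.03 (edgeR adjusted p = 0.928, with 0.25 without Control replicate 1, 0.01 without AF-PTK@LEV@SPP1 replicate 2 and -0.17 without Control replicates 2 and 3).

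The library that was highest for these isoforms was also highest in other measures. The nucleus pulposus and notochord list, measured for 7 of 9 listed names with Noto at 0 and the carbonic anhydrase gene Car3 most abundant, summed to 1708, 540 and 531 normalized CPM in Control and 7047, 3896 and 3438 in the labelled libraries. The glucose transporter gene Slc2a1, chosen after its values were seen, had 159, 181 and 184 in Control and 843, 176 and 260 in the labelled libraries. AF-PTK@LEV@SPP1 replicate 1 was the highest library in both, as it was for Ndufa4l2 and Cox4i2. For the list the match did not extend to the other libraries. Control 1 had the highest list sum of the Control libraries but the lowest Ndufa4l2 and Cox4i2. AF-PTK@LEV@SPP1 replicate 2 was above replicate 3 for the list and below it for both isoforms. Slc2a1 followed the isoforms in both of these respects. The part of nucleus pulposus cells in the isoforms' values was not tested.

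The isoforms known from heart and skeletal muscle are Cox6a2 and Cox7a1, with Cox6a1 and Cox7a2 as their widespread partners. Cox6a2 had 8.52, 13.0 and 14.2 normalized CPM in Control and 5.16, 38.8 and 12.2 in the labelled libraries. AF-PTK@LEV@SPP1 replicate 2 stood far above all others and replicate 1 was lowest, so the groups overlapped. On the log2 scale the difference was 0.79 (SE 0.85, edgeR adjusted p = 0.594) and it was -0.31 without AF-PTK@LEV@SPP1 replicate 2, 1.21 without replicate 1 and 0.49 without Control replicate 1. The skeletal muscle list, with 13 of 15 names measured, none at 0 and the actin gene Acta1 most abundant, summed to 1416, 1806 and 1815 in Control and 1293, 13552 and 3589 in the labelled libraries. It was highest in the same library, and its part in the Cox6a2 values was not tested. Cox7a1 had 0.314, 0.196 and 0.927 in Control and 0.638, 0.829 and 0.897 in the labelled libraries, a few counts per library at a locus opposite Capns1, and its log2 fold change of 0.83 (edgeR adjusted p = 0.321, with 0.49, 0.40 and 1.63 without Control replicates 1, 2 and 3 and 1.35 without Control replicates 2 and 3) is uncertain.

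The widespread forms varied less. Cox6a1 had 62.5, 52.3 and 53.3 normalized CPM in Control and 47.0, 43.1 and 51.7 in the labelled libraries. The labelled libraries were below the Control libraries, by a log2 fold change of -0.25 (edgeR adjusted p = 0.296) that was -0.14 without Control replicate 1. Cox7a2 had 83.5, 61.4 and 65.5 in Control and 64.0, 66.4 and 59.0 in the labelled libraries. These overlapped, with a log2 fold change of -0.18 (edgeR adjusted p = 0.482) that was 0.02 without Control replicate 1 and -0.36 without Control replicates 2 and 3. The testis forms Cox7b2 and Cox8c had 0 counts in every library, which at this depth allows up to 0.167 to 0.193 CPM.

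**Figure D3:**
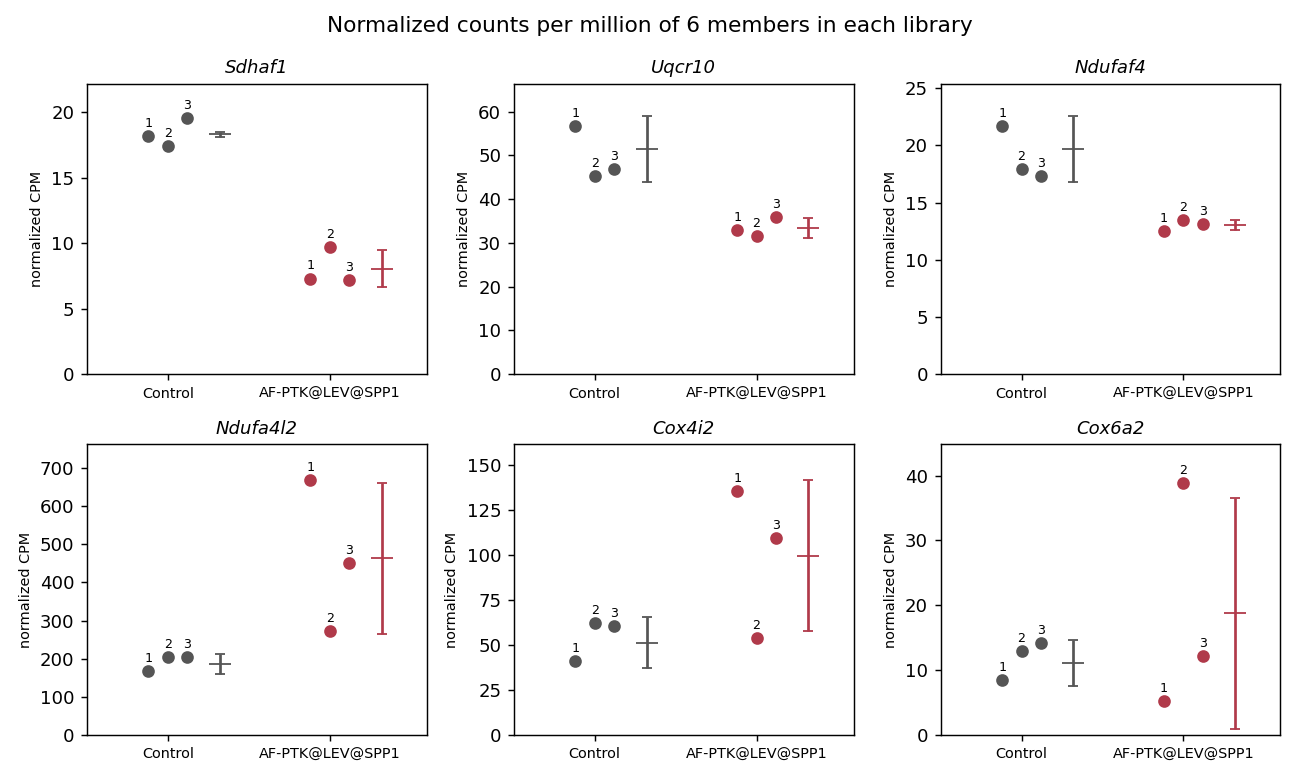
Normalized CPM (y axis, starting at 0) of 6 members in each library, numbered by replicate, with the mean and SD over distinct samples (n = 2 for Control, n = 3 for AF-PTK@LEV@SPP1). The groups do not overlap for Sdhaf1, Uqcr10, Ndufaf4 and Ndufa4l2. They overlap for Cox4i2 and Cox6a2, where the highest library was AF-PTK@LEV@SPP1 replicate 1 and replicate 2, respectively.

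Some members could not be read well. Of the 12 genes named as pseudogenes, 3 were tested and edgeR, DESeq2 and limma-voom each called 0, with 1 at an unadjusted p under 0.05. Their lowest fold change was that of Atp5mpl-ps1, with 15.2, 11.3 and 12.6 normalized CPM in Control and 9.80, 9.65 and 9.25 in the labelled libraries, which did not overlap (log2 fold change -0.47, edgeR adjusted p = 0.166, and -0.29 without Control replicate 1). Reads of such copies can come from their parent genes. Ndufv3-ps1 stood at 0.418, 0.326 and 0.495 in Control and 0.754, 0.651 and 0.617 in the labelled libraries, close to the smallest measurable level and opposite Klhl12 (log2 fold change 0.73, edgeR adjusted p = 0.312). Ndufb2 and Cox6b1 each have a second gene of the same name, with 0 counts for Ndufb2. The subunit genes Cox8a, Cox8b, Cox6b2, Ndufa7, Ndufb1 and Atp5mj were not found by these names, and Atp5mc1, Uqcr11 and Ndufs6 are not listed as protein coding, so none of them was analysed here.

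The rest of the mitochondrial energy pathway was read from lists of other genes. Of 18 electron carrier and partner genes, all tested, edgeR and limma-voom called 0 and DESeq2 called 1 lower (Coq10b), with 1 at an unadjusted p under 0.05 by each, and the median log2 fold change was 0.09. It was 0.22 without Control replicate 1, 0.05 without Control replicate 2, 0.06 and 0.003 without AF-PTK@LEV@SPP1 replicates 1 and 2 and 0.0003 without Control replicates 2 and 3. The most abundant, Etfa, part of the flavoprotein that takes electrons from fatty acid oxidation, had 65.4, 58.7 and 60.9 normalized CPM in Control and 57.8, 60.0 and 53.8 in the labelled libraries. The groups overlapped (log2 fold change -0.09, edgeR adjusted p = 0.617, with -0.04 without Control replicate 1, -0.05 without AF-PTK@LEV@SPP1 replicate 3 and -0.15 without Control replicates 2 and 3). Of 36 listed assembly factors, mainly of complexes III and IV and of ATP synthase with some of complex I, 28 were tested and edgeR and limma-voom called 0 while DESeq2 called 1 lower (Pet100), with 4 at an unadjusted p under 0.05 by each and a median of -0.05 (0.04 without Control replicate 1, -0.02 without AF-PTK@LEV@SPP1 replicate 3, -0.11 without Control replicates 2 and 3). The most abundant of them, Cox15, an enzyme of heme A synthesis for complex IV, had 42.4, 39.8 and 38.8 in Control and 57.9, 47.6 and 51.4 in the labelled libraries. Every labelled library was above every Control library, with a log2 fold change of 0.39 (SE 0.12) that was not called (edgeR adjusted p = 0.139).

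Regulators of mitochondrial biogenesis had a median log2 fold change of 0.02, and of 0.01 without Control replicate 1, -0.02 and 0.0001 without AF-PTK@LEV@SPP1 replicates 2 and 3 and 0.04 without Control replicates 2 and 3. They went both ways, from -1.05 (Esrra) to 1.39 (Pparg), with 8 above 0 and 8 below. Of 18 listed, 16 were tested, and edgeR and limma-voom called 0, with 3 and 4 at an unadjusted p under 0.05, while DESeq2 called Pparg higher and Pprc1 lower, with 3. Gabpa, an ETS factor known to bind promoters of chain subunits, had 80.5, 75.2 and 75.6 normalized CPM in Control and 71.5, 74.6 and 75.9 in the labelled libraries. These overlapped (log2 fold change -0.04, edgeR adjusted p = 0.835, with -0.001 without Control replicate 1 and -0.08 without Control replicates 2 and 3). The nucleotide and phosphate carriers and porins had 8 of 12 tested, and edgeR and limma-voom called 0, with 1 at an unadjusted p under 0.05 by each, while DESeq2 called 1 lower (Slc25a5), with 2, and the median was 0.21 (0.09 without AF-PTK@LEV@SPP1 replicate 2). Slc25a4, which exchanges ADP and ATP across the inner membrane, had 213, 197 and 198 in Control and 183, 304 and 196 in the labelled libraries. AF-PTK@LEV@SPP1 replicate 2 stood highest and the groups overlapped, and the log2 fold change of 0.19 (edgeR adjusted p = 0.676) was -0.07 without that library and 0.29 without replicate 1 or 3. The skeletal muscle sum given above was highest in the same library, and its part in the carriers' values was not tested.

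The 18 tricarboxylic acid cycle genes, all tested, had a median log2 fold change of -0.09 (-0.02 without Control replicate 1, -0.06, -0.24 and -0.004 without AF-PTK@LEV@SPP1 replicates 1, 2 and 3, -0.18 without Control replicates 2 and 3), and edgeR and limma-voom called 0 with 0 at an unadjusted p under 0.05, while DESeq2 called 0 with 1. Of 27 glycolysis genes listed, 26 were tested, with a median of 0.18 (-0.02 without Control replicate 1, 0.01 and 0.31 without AF-PTK@LEV@SPP1 replicates 1 and 2, 0.41 without Control replicates 2 and 3), and edgeR and limma-voom called 1 higher (Ldhb) and 0 lower, while DESeq2 called 3 higher. The counts at an unadjusted p under 0.05 by edgeR, limma-voom and DESeq2 were 5, 4 and 10 of 26, against 25.4%, 25.6% and 28.3% of all genes.

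Ldhb, the lactate dehydrogenase subunit abundant in heart, had 15.7, 8.73 and 9.27 normalized CPM in Control and 38.0, 41.2 and 32.5 in the labelled libraries. Every labelled library was above every Control library (12.4 ± 4.75 SD, n = 2, and 37.2 ± 4.40 SD, n = 3). Ldhb rose by 1.63 on the log2 scale (SE 0.27, edgeR adjusted p = 0.0476, exact permutation p = 0.1). The call was lost without AF-PTK@LEV@SPP1 replicate 1, 2 or 3 (adjusted p = 0.0883, 0.118 and 0.159 by edgeR) and with scaling by library size only (0.0685). No gene of the whole table was called without AF-PTK@LEV@SPP1 replicate 2 or 3. The call was also lost without Control replicates 2 and 3, which left a lone Control sample (log2 fold change 1.28).

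The partners of the nuclear subunits that are encoded in the mitochondrion had 13 genes, all tested, and edgeR, DESeq2 and limma-voom called 0, with 0 at an unadjusted p under 0.05 in each. Their median log2 fold change was -0.06, from -0.37 to 0.20. The median was 0.04 without Control replicate 1 or AF-PTK@LEV@SPP1 replicate 1, -0.03 without Control replicate 2, -0.02 and -0.24 without AF-PTK@LEV@SPP1 replicates 2 and 3 and -0.10 without Control replicates 2 and 3. Summed, they had 77905, 75098 and 75050 normalized CPM in Control and 59565, 63215 and 84480 in the labelled libraries. AF-PTK@LEV@SPP1 replicate 3 was highest and replicates 1 and 2 lowest, an order that differed from that of the nuclear members. Mt-co1, the catalytic subunit of complex IV, had a log2 fold change of -0.14 (SE 0.37, edgeR adjusted p = 0.845) that was -0.07 and -0.27 without AF-PTK@LEV@SPP1 replicates 2 and 3.

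The mitochondrial ribosome, which translates those transcripts, had 73 nuclear genes and 72 tested, and edgeR and limma-voom called 0 with 6 at an unadjusted p under 0.05 by each, while DESeq2 called 2 lower (Mrpl20 and Mrpl12) with 8. The median log2 fold change was -0.14 (-0.05 without Control replicate 1 and -0.24 without Control replicates 2 and 3), with 58 below 0 (80.6%, against 45.8% of all genes), and all labelled samples were below all Control samples for 25 (34.7%, against 24.8%). The summed level was 1369, 1219 and 1222 normalized CPM in Control and 1129, 1129 and 1159 in the labelled libraries. Here the groups did not overlap (1295 ± 105 SD, n = 2, and 1139 ± 17.6 SD, n = 3), and Control 1 was again highest. The osteoclast sum given above also separated the groups in this direction with Control 1 highest, and its part in these levels was not tested. Mrpl17, the most abundant by counts, had 65.0, 60.3 and 59.6 in Control and 55.7, 45.4 and 50.5 in the labelled libraries, below Control in each (log2 fold change -0.27, edgeR adjusted p = 0.248).

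Promoters of chain genes are known for sites of the factors NRF1 and GABPA and of nuclear receptors, and the letters of these motifs were counted on both strands in RefSeq promoters (GRCr8, 250 bases before to 50 after the start). Of 91 member names without pseudogenes, 80 had a promoter. The NRF1 core GCGCATGC was in 11 of them (13.8%), against 827 of all 33469 promoters (2.47%). The ETS motif CCGGAAG, read by GABPA, was in 24 (30%), against 2927 (8.75%). The nuclear receptor element AAGGTCA was in 9 (11.3%), against 1543 (4.61%). A member name counted once if any of its promoters matched. All promoters were counted singly and were not limited to genes tested here, so the shares are of unlike units and sets. A match describes letters only and not a bound site.

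The 250 bases before the start are shown for the 4 members called lower by DESeq2, among them Sdhaf1, and for Ndufa4l2, called higher by DESeq2, so that their motif letters can be compared. Capitals mark a match to 1 of the 3 motifs on either strand. Sdhaf1 (chr1:94704612-94704861, minus strand) and Atp5mk (chr1:255922048-255922297, minus strand) each hold 1 ETS match, written as its reverse complement. Ndufaf4 (chr5:43401545-43401794, plus strand) holds the NRF1 core on both strands in overlapping letters, and Uqcr10 (chr14:83791915-83792164, minus strand) and Ndufa4l2 (chr7:65241919-65242168, plus strand) hold none of these letters in the stretch. The positions are those of GRCr8, which need not be the build of the count table, whose build is not named for rat.
Sdhaf1: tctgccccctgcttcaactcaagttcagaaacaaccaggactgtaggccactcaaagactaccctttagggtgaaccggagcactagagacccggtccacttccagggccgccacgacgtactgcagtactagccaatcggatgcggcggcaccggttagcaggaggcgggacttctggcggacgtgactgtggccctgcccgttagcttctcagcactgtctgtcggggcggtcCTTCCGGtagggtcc
Atp5mk: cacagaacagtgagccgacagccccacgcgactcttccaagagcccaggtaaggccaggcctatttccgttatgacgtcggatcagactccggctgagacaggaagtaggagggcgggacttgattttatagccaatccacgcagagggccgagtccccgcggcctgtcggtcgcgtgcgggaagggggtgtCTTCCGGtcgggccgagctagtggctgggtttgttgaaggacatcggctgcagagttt
Ndufaf4: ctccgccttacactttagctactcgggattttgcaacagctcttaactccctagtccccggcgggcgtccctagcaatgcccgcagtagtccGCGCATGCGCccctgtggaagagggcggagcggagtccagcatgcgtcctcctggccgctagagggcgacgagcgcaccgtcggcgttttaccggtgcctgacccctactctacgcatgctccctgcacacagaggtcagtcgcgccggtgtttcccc
Uqcr10: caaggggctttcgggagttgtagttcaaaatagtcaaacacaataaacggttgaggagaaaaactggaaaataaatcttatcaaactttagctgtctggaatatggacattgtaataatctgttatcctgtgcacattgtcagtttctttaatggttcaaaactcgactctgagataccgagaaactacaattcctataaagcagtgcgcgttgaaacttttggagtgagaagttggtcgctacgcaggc
Ndufa4l2: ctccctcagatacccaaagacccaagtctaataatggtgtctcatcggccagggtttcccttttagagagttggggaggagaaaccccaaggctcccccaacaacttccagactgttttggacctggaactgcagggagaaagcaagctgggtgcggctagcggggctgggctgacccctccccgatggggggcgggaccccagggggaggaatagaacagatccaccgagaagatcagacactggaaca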

How the data were processed

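Of 6 libraries of bulk RNA, 3 carry the label AF-PTK@LEV@SPP1 and 3 are Controls. Counts, as deposited by the authors, give 1 whole number of reads per Ensembl rat gene and library, unnormalized, and the labels list FastQC, Trimmomatic, HISAT2, featureCounts and DESeq2 without versions. Columns that name only the disc were taken as Control and those that name the agent as treated. Counts were fitted on the whole table with edgeR 4.0.16 in R 4.3.3 (trimmed mean of M-values, filterByExpr with a minimum count of 10, quasi-likelihood test) over 5 distinct samples, Control replicates 2 and 3 being summed. There were 3 residual degrees of freedom, and the common biological coefficient of variation was 0.302. A call required an adjusted p under 0.05 (Benjamini-Hochberg, over all 15537 genes tested). Normalized CPM used factors over the 6 libraries. Exact permutation tests were two-sided, on log2 CPM with a prior count of 2. Levels per transcript length were not computed, so the most abundant member of each complex was not picked, and genes called most abundant in a list had the highest normalized counts, which also depend on transcript length.

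The members and lists were chosen with earlier results of these data known. Named genes were members called, the highest and lowest fold change in each complex, the tissue isoforms and regulators, the called or most abundant gene of each pathway list, the most abundant and up to 3 called genes of each cell marker list, and Spp1. Some genes that meet this rule are not reported here, and they remain in the counts, medians and sums. Other genes were chosen after their values were seen. The fit was checked on simulated counts. Alternatives were DESeq2 1.42.0, limma-voom 3.58.1, other scalings and filters, a fold threshold, the 6 libraries kept apart, these with replicate as a block term, and each library left out. The fold threshold (1 in absolute log2) is not among the 16 alternatives counted for single genes, and its outcome is not given here. Histology, imaging and cell experiments were not used here.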

Additional observations from a re-analysis of the deposited data

How the results depend on the processing

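By edgeR 0 members were called higher and 1 lower, among 175 and 400 of all genes. Members called higher numbered 1 with DESeq2 and 3 with the 6 libraries kept apart, and members called lower 4 with each. Scaling by library size only, and the 6 libraries kept apart with a replicate block, each gave 0 called lower (Sdhaf1 adjusted p = 0.0659 and 0.0531 by edgeR, within 2.14e-05 to 0.195 over its 16 alternatives). All genes called higher numbered 1132 with DESeq2, 1233 with the 6 libraries kept apart and 307 with these and the replicate block, and all genes called lower 1440 and 1494 with the first of these. With 1 library left out, members called lower ranged from 0 to 1, all genes called higher from 0 to 170 and lower from 0 to 396. Without AF-PTK@LEV@SPP1 replicate 2 or 3 no gene was called in either direction, so a call lost there is not particular to its gene. Without Control replicates 2 and 3 there were 0 members called lower, 0 genes higher and 3 lower, with Control 1 as the lone Control sample, assumed to vary like the others. The members' median log2 fold change was -0.11, -0.067 with the 6 libraries kept apart, -0.071 with these and the replicate block, -0.16 to 0.021 with 1 library left out and -0.24 without Control replicates 2 and 3. The causes were not tested, though fewer distinct samples were fitted in every omission except that of Control replicate 2 alone or of Control replicate 3 alone. Correlations of same-numbered libraries across genes, centred within groups, were -0.34, -0.30 and -0.10. Those of Control 1 with AF-PTK@LEV@SPP1 2 and of Control 2 with AF-PTK@LEV@SPP1 1 were 0.33 and 0.31. Since Control 2 and 3 are near-identical, centring sets Control 1 opposite this pair. With AF-PTK@LEV@SPP1 1, for example, the 3 Control libraries gave -0.34, 0.31 and 0.29. The values are thus not independent and cannot decide whether the replicate numbers pair the libraries.

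Directions turned for a few genes, not all of them near 0. The log2 fold change of Cox7a2l was 0.017 with upper-quartile scaling, 0.0010 with a minimum count of 30, 0.029 with the 6 libraries kept apart, 0.026 with these and the replicate block and -0.13 to 0.080 with 1 library left out. With 1 library left out, the values ran from -0.15 to 0.029 for Uqcrc2, -0.16 to 0.021 for Atp5if1, -0.31 to 1.21 for Cox6a2, -0.22 to 0.017 for Cox7a2 and -0.073 to 0.29 for Slc25a4. Without Control replicates 2 and 3 they were -0.011 for Atp5mc2, -0.066 for Spp1 and -0.17 for Cox4i1. Under the other scalings, 125 of 132 single levels and 44 of 48 sums moved by less than 1 SD.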

Other observations

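Osteoclast and macrophage markers held 7 of the 8 cell marker calls by edgeR and 6 of 7 by limma-voom, but 11 of 34 by DESeq2, whose others lay in lists given below. For 7 of 8 osteoclast markers (87.5%, against 24.8% of all genes tested) every labelled sample was below every Control sample. Of the 8, edgeR called 5 lower, DESeq2 7 and limma-voom 4, where they called 2.57%, 9.27% and 2.03% of all genes lower. Dcstamp, a protein of osteoclast fusion, had 35.3, 28.7 and 29.1 normalized CPM in Control and 3.31, 3.55 and 2.41 in the labelled libraries, and fell by 3.34 on the log2 scale (SE 0.22, edgeR adjusted p = 0.0119). The protease gene Ctsk had 4160, 2736 and 2723 in Control and 566, 477 and 281 in the labelled libraries and fell by 2.93 (SE 0.38, edgeR adjusted p = 0.0306), and Mmp9, another protease, fell by 1.66 (SE 0.19, edgeR adjusted p = 0.026). The calls of Dcstamp, Ctsk and Mmp9 were lost without AF-PTK@LEV@SPP1 replicate 2 (edgeR adjusted p = 0.0679, 0.0983 and 0.083) and without replicate 3 (0.127, 0.136 and 0.15). In both of these fits no gene of the whole table was called. The 3 calls were also lost without Control replicates 2 and 3, which left a lone Control sample (log2 fold changes -3.47, -3.20 and -1.86). Those of Ctsk and Mmp9 were lost without AF-PTK@LEV@SPP1 replicate 1 as well (0.0611 and 0.069). They were lost too without Control replicate 1, which also left a lone Control sample (log2 fold changes -2.60 and -1.45).

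On the macrophage and monocyte list, edgeR and limma-voom called 2 of 12 lower and DESeq2 4. Of all genes tested, edgeR called 2.57% lower, limma-voom 2.03% and DESeq2 9.27%. Cd14, a receptor part for bacterial lipopolysaccharide, had 154, 135 and 135 normalized CPM in Control and 37.6, 35.5 and 40.8 in the labelled libraries and fell by 1.89 on the log2 scale (SE 0.12, edgeR adjusted p = 0.0119). Cd68, a lysosomal protein, fell by 1.97 (SE 0.22, edgeR adjusted p = 0.0231). Both calls were lost without AF-PTK@LEV@SPP1 replicate 2 (edgeR adjusted p = 0.0679 for each) and without replicate 3 (0.13 and 0.139), where no gene of the whole table was called. Both were also lost without Control replicates 2 and 3, which left a lone Control sample (log2 fold changes -1.98 and -2.16). That of Cd68 was lost without AF-PTK@LEV@SPP1 replicate 1 as well (0.0565). It was lost too without Control replicate 1, which also left a lone Control sample (log2 fold change -1.77). The abundant Lyz2 overlapped, with a log2 fold change of -0.68 (edgeR adjusted p = 0.571) that was -0.27 without AF-PTK@LEV@SPP1 replicate 1, -0.39 without Control replicate 1 and -1.03 without AF-PTK@LEV@SPP1 replicate 3. In the other direction, Cd163 had 55.0, 29.9 and 29.4 in Control and 46.5, 140 and 86.9 in the labelled libraries (1.15, edgeR adjusted p = 0.246).

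On the cartilage list, 7 of 7 measured, edgeR and limma-voom called 1 higher and DESeq2 1 higher and 1 lower. Of all genes tested, edgeR called 1.13% higher, limma-voom 0.895% and DESeq2 7.29%, and DESeq2 called 9.27% lower. The sums were 20239, 31208 and 31063 normalized CPM in Control and 39409, 27631 and 44541 in the labelled libraries, with Col2a1 most abundant (log2 fold change 0.57, edgeR adjusted p = 0.459, with 0.30 without Control replicate 1 and 0.90 without Control replicates 2 and 3). Chad, a matrix protein of cartilage, had 226, 472 and 473 in Control and 2836, 1766 and 3211 in the labelled libraries, and rose by 2.93 on the log2 scale (SE 0.48, edgeR adjusted p = 0.0454). Its call was lost without AF-PTK@LEV@SPP1 replicate 1, 2 or 3 (edgeR adjusted p = 0.0839, 0.0893 and 0.163). No gene of the whole table was called without AF-PTK@LEV@SPP1 replicate 2 or 3. The call was also lost with the 6 libraries kept apart and a replicate block (0.0504, against 0.00844 without the block). Without Control replicate 1, or without Control replicates 2 and 3, a lone Control sample was left. The call was lost there too, with log2 fold changes of 2.49 and 3.57. For 2 other genes of the list, chosen after their values were seen, each labelled library lay below every Control library. Matn3 had 383, 354 and 343 in Control and 193, 172 and 88.4 in the labelled libraries (log2 fold change -1.24, edgeR adjusted p = 0.111) and was the gene DESeq2 called lower, and Col9a1 had 1707, 960 and 965 in Control and 940, 801 and 457 in the labelled libraries (-0.83, edgeR adjusted p = 0.261, and -0.37 without Control replicate 1).

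The other marker lists had 0 genes called by edgeR and by limma-voom. The numbers at an unadjusted p under 0.05 by edgeR, and called by DESeq2, were as follows. They were 1 and 1 of 13 tested for skeletal muscle, 6 and 6 of 10 for adipocytes and 0 and 0 of 8 for neutrophils. For erythroid cells they were 2 and 3 of 7, for osteoblasts 0 and 0 of 5 and for annulus and tendon 1 and 1 of 6. For nucleus pulposus and notochord they were 5 and 5 of 6 and for endothelium 2 and 1 of 5. For B cells they were 1 and 1 of 5 and for Schwann cells 3 and 3 of 4. Over all genes tested, 25.4% had an unadjusted p under 0.05 by edgeR, and DESeq2 called 7.29% higher and 9.27% lower. The adipocyte markers summed to 416, 109 and 111 normalized CPM in Control and 856, 1439 and 640 in the labelled libraries, with the adipokine gene Adipoq most abundant (log2 fold change 2.63, edgeR adjusted p = 0.211, and 5.14 without Control replicate 1). Erythroid markers summed to 370, 399 and 435 in Control and 341, 3294 and 2099 in the labelled libraries, with Hbb most abundant (1.83, edgeR adjusted p = 0.25). The Schwann cell markers summed to 27.7, 16.0 and 14.0 in Control and 45.8, 537 and 820 in the labelled libraries. For B cells, led by Cd79a (1.12, edgeR adjusted p = 0.528, with 3.18 without Control replicate 1, 0.51 without AF-PTK@LEV@SPP1 replicate 3 and 0.28 without Control replicates 2 and 3), the sums were 39.8, 4.89 and 3.71 in Control and 20.7, 54.3 and 83.7 in the labelled libraries. Endothelial markers, led by Pecam1 (-0.66, edgeR adjusted p = 0.114, and -0.40 without Control replicates 2 and 3), had 452, 546 and 524 in Control and 329, 392 and 388 in the labelled libraries, with Cdh5 (-0.44, edgeR adjusted p = 0.154) also below every Control library in each labelled library (92.7, 111 and 109 in Control, 65.3, 81.4 and 72.4 in the labelled libraries), Tek (-0.02), Emcn (-0.05) and Kdr (0.03) near 0 and a median of -0.05. With libraries left out this median ran from -0.14 (without Control replicates 2 and 3) to -0.005 (without AF-PTK@LEV@SPP1 replicate 1). The annulus and tendon list, led by the collagen gene Col1a1 (0.48, edgeR adjusted p = 0.582, with 0.24 without Control replicate 1, 0.30 without AF-PTK@LEV@SPP1 replicate 1 and 0.74 without Control replicates 2 and 3), had 34661, 49510 and 49846 in Control and 67881, 48179 and 55137 in the labelled libraries, while Thbs4 (-0.55, edgeR adjusted p = 0.373) and Scx (-0.41, edgeR adjusted p = 0.722) lay below 0. Thbs4 had 299, 500 and 485 in Control and 304, 173 and 315 in the labelled libraries. Scx had 3.92, 15.3 and 14.8 in Control and 7.48, 4.03 and 9.59 in the labelled libraries. For both genes the groups overlapped, with Control 1 lowest of the Control libraries. The most abundant genes of lists given above had log2 fold changes of 2.18 for Acta1 (edgeR adjusted p = 0.25), 1.71 for S100a9 (edgeR adjusted p = 0.432), -1.02 for Ibsp (edgeR adjusted p = 0.225) and 2.06 for Car3 (edgeR adjusted p = 0.154). Without Control replicate 1 they were 3.42 for S100a9, -0.50 for Ibsp and 3.49 for Car3, without Control replicates 2 and 3 they were 0.94 for S100a9 and 1.35 for Car3, without AF-PTK@LEV@SPP1 replicate 2 the value of Acta1 was 0.84, and without replicate 3 that of S100a9 was 1.11. For 2 other osteoblast markers the sign differed from that of Ibsp: Bglap (1.20, edgeR adjusted p = 0.615) had 636, 12.3 and 12.8 in Control and 559, 857 and 746 in the labelled libraries, and Phex was at 0.36. Phex had 83.2, 13.4 and 13.9 in Control and 60.5, 70.5 and 49.8 in the labelled libraries, so Control 1 was highest. The median of the 5 was -0.25, with 1.35 without Control replicate 1, -0.10 without AF-PTK@LEV@SPP1 replicate 3 and -0.73 without Control replicates 2 and 3.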
